A study of Homo sapiens with 16 samples.

Results

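Ribosome footprints of 4 established human cancer cell lines were compared after 30 min with 3 µM rocaglamide A (RocA) and after 30 min with the solvent DMSO. The comparison takes 12 of the 16 libraries of the series, chosen by title: 4 libraries at 3 µM RocA, 1 from each line, and 8 DMSO libraries, 2 from each line. The lines are NCI-H1650 and NCI-H520, both from lung cancers, and Hs 936.T and A375, both from melanomas, and the labels give the genetic background of every library as wild type. The 4 libraries at a lower dose of RocA are not part of the comparison and were used once, as an alternative fit. Ribosome profiling sequences the stretches of mRNA that ribosomes shield from RNase, so the number of footprints on a coding sequence follows how many ribosomes were on that mRNA. Each treated library is the single one of its line, so the lines served as replicates of the treatment (n = 4), and the labels do not say whether the DMSO libraries came from separate cultures. The SE and p-value of a change come from the fit to all 12 libraries, and part of their error comes from the DMSO pairs. They are therefore not the spread of the change over the 4 lines, which is given by the changes of the single lines. The deposited entries carry no gene names, and names were assigned by aligning coding lengths with GENCODE release 29, so a name can be wrong in a small share of cases. Levels are in CPM, counts per 1000000 counts of the library, and those of single genes are scaled by TMM, a factor that evens out library composition. All changes are shifts of a gene against the remaining genes in its library. A fall of all genes together was not measured, and fewer mRNA molecules and fewer ribosomes per mRNA cannot be told apart.

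RocA is a plant product that binds eIF4A, the RNA helicase of the cap-binding complex eIF4F. eIF4F consists of the cap-binding protein eIF4E, the scaffold eIF4G and eIF4A, and it recruits the small ribosomal subunit, which then scans the 5′ untranslated region (5′ UTR) for the start codon. RocA is known to clamp eIF4A onto stretches of purines (A and G), where the clamped protein stands in the way of scanning. The title of the series names the helicase DDX3 as a further target.

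The longest purine run of the annotated 5′ UTR is shown for genes that fell or rose most, because purine runs are the RNA to which the compound is known to tie eIF4A. Windows of at most 30 bases from GENCODE release 29 transcripts (GRCh38) are written 5′ to 3′ on the mRNA strand, with the run in capitals. Windows are shown for 5 of the 12 largest well-counted falls and 5 of the 12 largest such rises described below, taken in order of the size of the change among those whose sequence is reported here. The falls are HNRNPD (chr4:82373927-82373956, minus strand), PSME3 (chr17:42833475-42833504, plus strand), PPP2CA (chr5:134226021-134226050, minus strand), TECR (chr19:14529667-14529696, plus strand) and UBQLN1 (chr9:83708063-83708092, minus strand).
HNRNPD: aaagcGAGGAGGAGGcgagagcggccgccg
PSME3: ggacggcacAGAGGGAGGGAGcgagcgagc
PPP2CA: tcagcgagcGGAGGAGGAGGcgcagcggcc
TECR: gcggagcagtagccgccgtGGGAGGGAGcc
UBQLN1: aatggagcGGGAAAGGAAAAGGcacgcagg
The rises are ZFP36 (chr19:39406813-39406842, plus strand), IER3 (chr6:30744525-30744554, minus strand), AHNAK (chr11:62536510-62536539, minus strand), RPS19BP1 (chr22:39532776-39532805, minus strand) and BOLA3 (chr2:74147953-74147982, minus strand).
ZFP36: ttcctatAAGtagccggctctcggtgccag
IER3: GAccctcacttggccttacactccgctcgg
AHNAK: actGAGGGGAAGAGAGGAAGGAGGGGcggg
RPS19BP1: cgccgagacgacAGGGActgccaggtcgga
BOLA3: cctccgggcggcAGGGGGcggcctctccca
The runs measured 10 bases in HNRNPD, 12 in PSME3, 11 in PPP2CA, 9 in TECR and 14 in UBQLN1. They measured 3 bases in ZFP36, 2 in IER3, 23 in AHNAK, 5 in RPS19BP1 and 6 in BOLA3. Over 10 of the 12 falls the run ranged from 8 to 15 bases, and over the 12 rises from 2 to 23 bases, with 11 of these at 9 or fewer, so the ranges overlapped. The cells may use other start sites than the annotated ones.

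Counts on the 17634 genes used summed to between 76812 (NCI-H1650) and 459398 (Hs 936.T) in the libraries at 3 µM RocA, against 885538 to 5043776 in the DMSO libraries. The treated total was 8.6% of the line's DMSO mean in NCI-H1650 and 41.4% in NCI-H520, with 12.8% in Hs 936.T and 10.8% in A375. Marker genes were read as a check of the labels. Melanocyte markers (11 of 12 named) summed to 21300 CPM (here without scaling) in Hs 936.T with RocA and to 23500 and 24200 CPM with DMSO. Their sum was 410 CPM in NCI-H520 with RocA, against 745 and 1830 CPM in its DMSO libraries 1 and 2, and it lay between 286 and 711 CPM in all NCI-H1650 and A375 libraries. Epithelial markers summed to 24600 CPM with RocA and to 18600 and 19900 CPM with DMSO in NCI-H1650, and to at most 54.4 CPM in any Hs 936.T library. Their sum lay between 4520 and 4640 CPM in NCI-H520 and between 363 and 529 CPM in A375. Mesenchymal markers summed to between 5510 and 8410 CPM in A375, and to at most 3290 CPM in any library of the other lines. Squamous markers summed to 173 CPM with RocA and to 457 and 417 CPM with DMSO in NCI-H520, and to 443 CPM with RocA and 414 and 407 CPM with DMSO in NCI-H1650, against at most 1.81 CPM in any Hs 936.T library. The squamous marker TP63 had 0 counts in every NCI-H520 library of the comparison. Blood cell markers gave at most 1.13 CPM in any library. The 3 µM library and DMSO library 2 of NCI-H520 carry that line in their titles, but NCI-H521 in the label for the cells. Without both, 2178 genes were called higher and 2497 lower. Of the marker lists, melanocyte genes gave 0 higher and 4 lower of 9 tested, epithelial ones 5 higher and 3 lower of 10, squamous ones 1 each way of 3, and mesenchymal ones 2 each way of 6. Over all tested genes 26.9% were called higher and 33.0% lower, and these lists are too short to be set apart from those shares. The part of the pigment genes of NCI-H520 in the results was not tested.

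At 3 µM RocA, 2338 of the 8688 genes tested were called higher (26.9%) and 2871 lower (33.0%) than with DMSO, by edgeR's quasi-likelihood test with cell line as a term and a Benjamini-Hochberg adjusted p under 0.05. Falls were deeper than rises. Among called genes 533 fell at least 4-fold and 46 rose at least 4-fold, and the median log2 change of all tested genes was -0.15. The change had one sign in all 4 lines for 80.1% of the called genes and for 55.3% of all tested genes. Calls were made at every level of footprints: when genes were ranked by average over the 12 libraries and cut into 5 equal classes, 15.8% were called higher in the lowest class and 38.9% in the highest, where 37.8% were called lower. Many of the deep falls rest on few reads. Of the genes called lower, 1852 (64.5%) had under 40 counts summed over the 4 treated libraries, 653 had under 10 and 6 had 0. Of the 533 genes with a 4-fold fall, 484 had under 40. The genes described first are therefore those with at least 400 counts over the DMSO libraries, at least 40 over the treated libraries, at least 1 in each of these, and one sign in each line. Since the minimum on treated counts removes genes that fell far, the number that passed it is not a result.

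**Figure D1:**
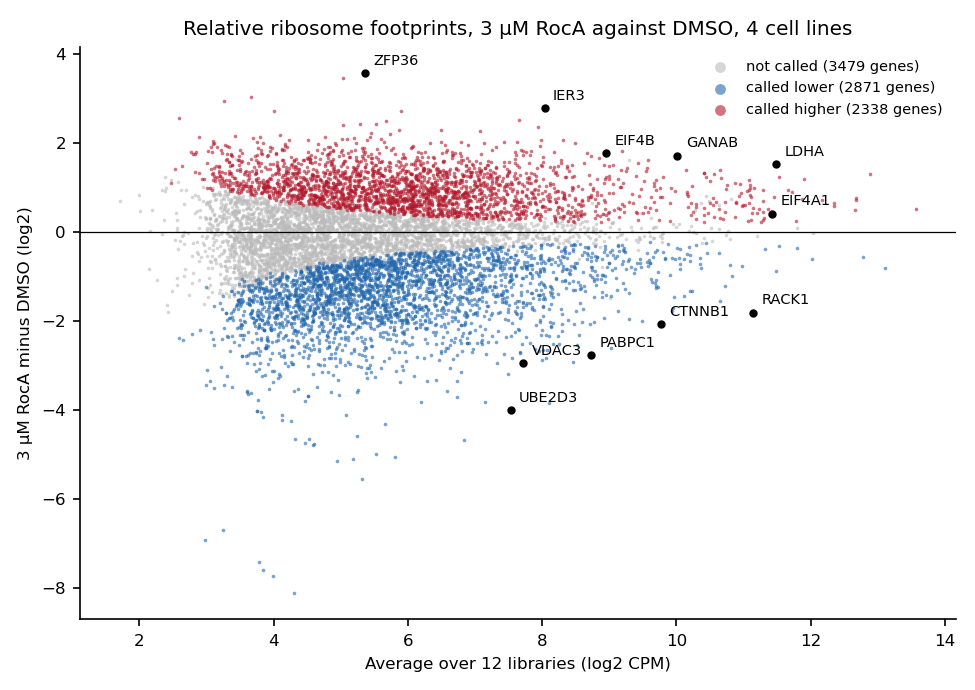
Each point is 1 of 8688 genes, with its average over 12 libraries (log2 CPM) on the horizontal axis and the log2 change at 3 µM RocA against DMSO on the vertical axis. Blue points were called lower (2871 genes), red points higher (2338) and grey points neither (3479). The 6 called genes with 0 treated counts lie lowest, and their fitted depth depends on the prior count.

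The largest well-counted falls were found on genes of varied function: a channel of the outer mitochondrial membrane, RNA-binding proteins, a phosphatase subunit, a transcription factor and a glucose transporter. The 12 leading falls lay between 6.15-fold and 7.75-fold lower, each from 42 to 79 counts summed over the treated libraries. In NCI-H1650 the treated library held 1 count for each of VDAC3, PPP2CA and UBQLN1, 2 for HIF1A and 3 for HNRNPD. The values of that line for these genes therefore rest on very few reads. VDAC3, a voltage-dependent anion channel of mitochondria, had 11.2 CPM in NCI-H1650 and 48.2 in NCI-H520, with 47.4 in Hs 936.T and 17.3 in A375 with RocA, against 83.0 and 85.9, 299 and 311, 424 and 384, and 158 and 154 CPM in the DMSO libraries of these lines. Every treated library lay below all 8 DMSO libraries, with a log2 change of -2.95 ± 0.18 (SE) and an adjusted p of 6.9e-19 (edgeR quasi-likelihood F test, Benjamini-Hochberg). HNRNPD, an RNA-binding protein that promotes decay of AU-rich mRNAs, had 33.6 CPM in NCI-H1650 and 75.3 in NCI-H520, with 52.4 in Hs 936.T and 51.8 in A375 with RocA, against a range of 360 to 570 CPM (median 407) in the DMSO libraries. Its change was -2.93 ± 0.15, the 4 lines lying between -3.39 and -2.77.

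PPP2CA, a catalytic subunit of protein phosphatase 2A, averaged 37.4 ± 22.6 CPM (SD, n = 4) with RocA and 305 ± 50.1 CPM (SD, n = 8) with DMSO. PSME3, an activator of the proteasome, averaged 37.3 ± 7.95 CPM with RocA and 244 ± 60.7 CPM with DMSO, and TECR, an enzyme of fatty acid elongation, 44.0 ± 12.1 and 326 ± 89.4 CPM. In all 3 genes the treated libraries lay below every DMSO library. UBQLN1, a shuttle that carries ubiquitinated proteins to the proteasome, fell with a log2 change of -2.71 ± 0.20, and RAB5C, a GTPase of early endosomes, with -2.62 ± 0.17.

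HIF1A, the oxygen-regulated subunit of a transcription factor of the hypoxia response, had 22.4 CPM in NCI-H1650 and 15.1 in NCI-H520, with 32.5 in Hs 936.T and 54.3 in A375 with RocA, against 103 to 372 CPM (median 230) with DMSO. SLC2A1, the glucose transporter GLUT1, had 44.8, 57.2, 30.0 and 39.5 CPM in the treated libraries of the same lines, from 4, 19, 12 and 16 counts. With DMSO it stood at 446 and 398 CPM in NCI-H1650, 472 and 399 in NCI-H520 and 339 and 324 in A375, but at 42.4 and 50.5 in Hs 936.T. The log2 change was -0.61 in Hs 936.T and between -3.20 and -2.90 in the other lines, a difference that did not pass the test between lines (adjusted p = 0.0997, edgeR quasi-likelihood F test, Benjamini-Hochberg). SDC1, a cell surface proteoglycan, and IDH1, the cytosolic isocitrate dehydrogenase, differed several-fold between lines under DMSO and fell in each: SDC1 by changes from -3.65 to -2.18 and IDH1 from -3.15 to -2.17.

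**Figure D2:**
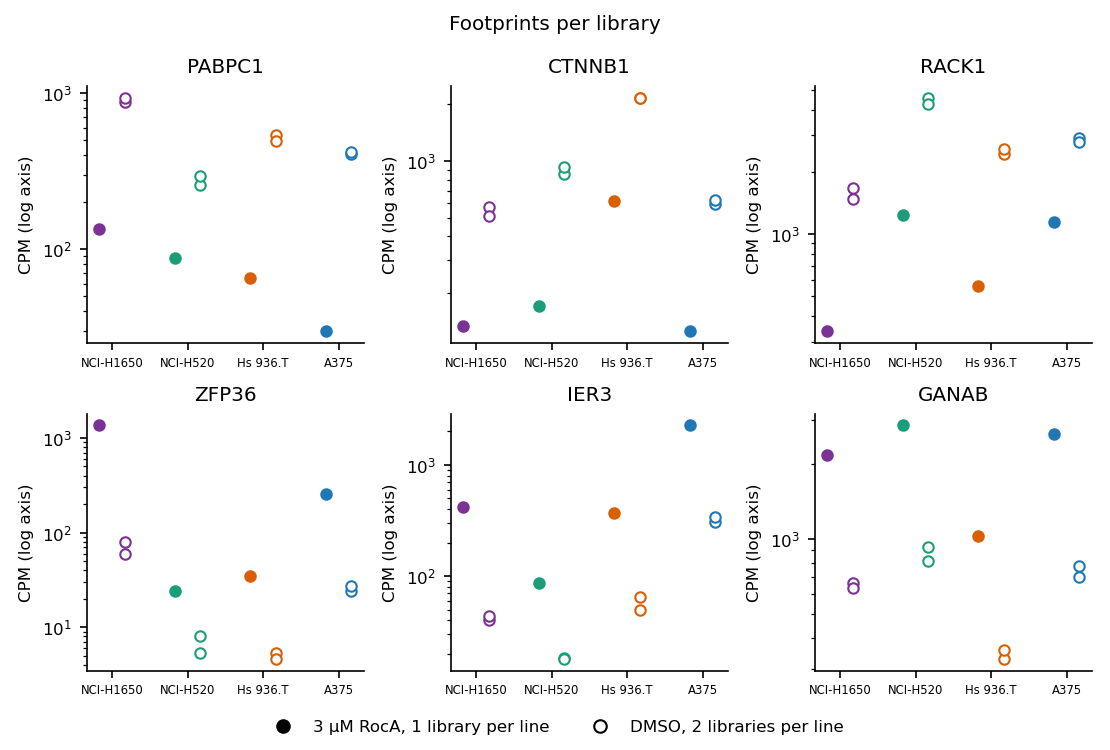
CPM on a log axis is plotted by cell line for 6 genes, with the 3 µM RocA library (filled) left of the 2 DMSO libraries (open). PABPC1, CTNNB1 and RACK1 lie below their own DMSO libraries in each line, and ZFP36, IER3 and GANAB lie above.

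Among genes with at least 500 CPM on average with DMSO, where the treated counts are larger, the 8 leading falls lay between 3.51-fold and 6.78-fold. PABPC1, the cytoplasmic poly(A)-binding protein, had 134 CPM in NCI-H1650 and 87.3 in NCI-H520, with 64.9 in Hs 936.T and 29.6 in A375 with RocA, against 879 and 936, 258 and 293, 538 and 490, and 408 and 418 CPM with DMSO in the same order of lines. Its change of -2.76 ± 0.18 was smallest in NCI-H520 (-1.64) and largest in A375 (-3.75), and the lines differed (adjusted p = 0.0346, edgeR quasi-likelihood F test, Benjamini-Hochberg). PTGES3, the HSP90 co-chaperone p23, had 100.9, 99.4, 115 and 113 CPM in NCI-H1650, NCI-H520, Hs 936.T and A375 with RocA, against 402 to 963 CPM (median 568) with DMSO. The treated libraries of PTGES3 varied less among themselves than its DMSO libraries did. They held only 9, 33, 46 and 46 counts in the same order, too few to read anything from that closeness.

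CTNNB1, which encodes the adhesion and WNT protein beta-catenin, averaged 262 ± 237 CPM (SD, n = 4) with RocA and 1051 ± 700 CPM (SD, n = 8) with DMSO. Its treated library in Hs 936.T (617 CPM) lay above both DMSO libraries of NCI-H1650 and above 1 of the A375 ones, so the groups overlapped, while each line on its own had a change between -2.37 and -1.81. RACK1, a scaffold protein on the small ribosomal subunit, had 336 CPM in NCI-H1650 and 1232 in NCI-H520, with 557 in Hs 936.T and 1137 in A375 with RocA, against 1469 to 4568 CPM (median 2675) with DMSO. With 1123 treated counts it was the best-read of these falls. YBX1, an RNA-binding protein that packages mRNA, averaged 135 ± 37.4 CPM with RocA and 519 ± 150 with DMSO. TMBIM6, an antiapoptotic membrane protein of the endoplasmic reticulum (ER), averaged 202 ± 26.3 CPM with RocA and 883 ± 197 with DMSO. HNRNPC, a splicing-related RNA-binding protein, averaged 199 ± 50.2 CPM with RocA and 749 ± 183 with DMSO, and CYCS, the cytochrome c gene, averaged 159 ± 56.9 and 567 ± 173 CPM.

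The largest rise was on ZFP36, an immediate early gene whose protein binds AU-rich elements and directs mRNAs to decay. It had 1356 CPM in NCI-H1650 and 24.1 in NCI-H520, with 35.0 in Hs 936.T and 256 in A375 with RocA, against 79.9 and 60.1, 5.37 and 8.05, 5.30 and 4.59, and 24.3 and 27.5 CPM with DMSO in the same order of lines. Each treated library was above both of its own DMSO libraries, with a log2 change of 3.57 ± 0.21 (SE) and an adjusted p of 4.51e-13 (edgeR quasi-likelihood F test, Benjamini-Hochberg). The change ranged from 1.70 in NCI-H520 to 4.27 in NCI-H1650, and the lines differed (adjusted p = 0.0334, edgeR quasi-likelihood F test, Benjamini-Hochberg). IER3, another immediate early gene, had 415 CPM in NCI-H1650 and 87.3 in NCI-H520, with 372 in Hs 936.T and 2264 in A375 with RocA, against 17.9 to 340 CPM (median 46.8) with DMSO. Its change of 2.79 ± 0.11 lay between 2.20 and 3.26 in the 4 lines.

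AHNAK, a giant scaffold protein, averaged 702 ± 770 CPM (SD, n = 4) with RocA and 108 ± 92.8 CPM (SD, n = 8) with DMSO, with changes from 0.92 in NCI-H520 to 2.86 in NCI-H1650 and A375.

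Further leading rises included several small factors of basic cell functions, such as RPS19BP1, a partner of the ribosomal protein RPS19, at 178 ± 72.1 CPM with RocA and 32.9 ± 9.04 CPM with DMSO. BOLA3, which serves mitochondrial iron-sulfur cluster transfer, stood at 150 ± 54.8 CPM with RocA and 27.9 ± 13.6 with DMSO, and NDUFAF8, an assembly factor of respiratory complex I, at 124 ± 69.0 and 25.7 ± 5.50 CPM. The NDUFAF8 change was 0.34 in NCI-H1650, from 2 treated counts, and between 2.19 and 2.55 in the other lines. SSNA1, a microtubule-binding protein, rose with a change of 2.41 ± 0.17. MED28, a Mediator subunit, rose with 2.30 ± 0.14, NAA25, a subunit of an N-terminal acetyltransferase, with 2.28 ± 0.12 and LSM5, a ring protein of RNA processing, with 2.27 ± 0.12. C19orf53 had 527, 862, 529 and 853 CPM in NCI-H1650, NCI-H520, Hs 936.T and A375 with RocA, against 97.7 to 218 CPM (median 115) with DMSO, so its groups did not overlap.

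The 8 leading rises among genes with at least 500 CPM lay between 2.51-fold and 3.29-fold. GANAB, the catalytic subunit of ER glucosidase II, had 2163 CPM in NCI-H1650 and 2846 in NCI-H520, with 1029 in Hs 936.T and 2622 in A375 with RocA, against 329 to 930 CPM (median 684) with DMSO. Its change was 1.72 ± 0.09, from 1.58 to 1.83 in the 4 lines. LDHA, the lactate dehydrogenase of glycolysis, averaged 5288 ± 1483 CPM (SD, n = 4) with RocA and 1818 ± 424 CPM (SD, n = 8) with DMSO, with changes from 1.44 to 1.61. RRM2, a subunit of ribonucleotide reductase, rose with a change of 1.43 ± 0.09, PPIB, an ER prolyl isomerase, with 1.39 ± 0.09, RPS13, a protein of the small ribosomal subunit, with 1.39 ± 0.09 and C1QBP, a mitochondrial matrix protein, with 1.36 ± 0.09. EIF3C and its near-identical copy EIF3CL both gave 1.33 ± 0.09. Reads cannot be split between them, so they count as 1 observation.

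**Figure D3:**
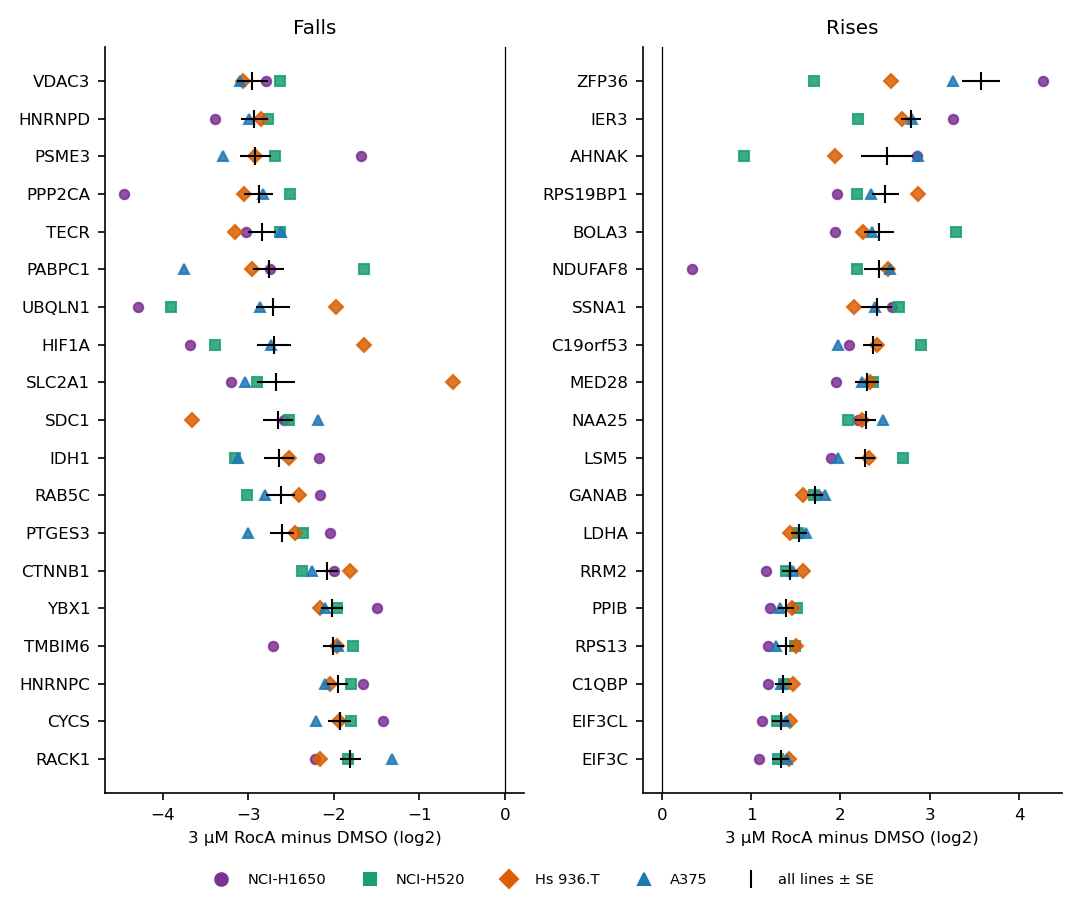
Log2 changes at 3 µM RocA against DMSO are shown for the 19 named falls (left) and 19 named rises (right), with 1 symbol per cell line and the fitted change with its SE as a black cross. All lines have the sign that the choice of genes requires. The lines are most apart for SLC2A1 and UBQLN1 among falls and for ZFP36, NDUFAF8 and AHNAK among rises.

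The eIF4F list holds the compound's target and its partners, and its tested members went both ways, with a median log2 change of -0.29. Of 17 members 5 were called higher (29.4%) and 9 lower (52.9%), against 26.9% and 33.0% over all tested genes. EIF4A1, the main eIF4A gene, had 1379 CPM in NCI-H1650 and 3684 in NCI-H520, with 2724 in Hs 936.T and 5406 in A375 with RocA, against 1319 to 4147 CPM (median 2170) with DMSO. Its rise of 0.41 ± 0.10 was small and its groups overlapped. EIF4A2, the paralog, rose with a change of 1.49 ± 0.10, from 0.93 to 1.75 by line. DDX3X averaged 490 ± 87.4 CPM (SD, n = 4) with RocA and 596 ± 109 CPM (SD, n = 8) with DMSO. The DDX3X fall of 0.29 ± 0.11 on the log2 scale was called (adjusted p = 0.0255, edgeR quasi-likelihood F test, Benjamini-Hochberg), but the call ended without DMSO library 1 of A375 (-0.22), without DMSO library 2 of NCI-H520 (-0.24), without the treated library of A375 (-0.18) and without either melanoma line (-0.31 without Hs 936.T, -0.17 without A375), and in further alternatives.

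EIF4B, a cofactor that stimulates eIF4A, had 852 CPM in NCI-H1650 and 1328 in NCI-H520, with 1049 in Hs 936.T and 1120 in A375 with RocA, against 210 to 385 CPM (median 321) with DMSO, a change of 1.78 ± 0.09 with groups far apart. EIF4H, a relative of EIF4B, was not called at -0.03 ± 0.11. The cap-binding EIF4E rose with 0.70 ± 0.12, and EIF4E2 was called higher at 0.39 ± 0.17, a call that ended without the treated NCI-H520 library (0.11) and under other scalings. Of the scaffolds, EIF4G1 fell with -0.69 ± 0.13, EIF4G2, which drives cap-independent initiation, fell with -2.02 ± 0.14 and EIF4G3 stood at 0.02 ± 0.19. EIF4G1 fell by 0.64 to 1.08 on the log2 scale in NCI-H1650, NCI-H520 and Hs 936.T, and in A375 the change was -0.01, a difference that passed the test between lines (adjusted p = 0.00836, edgeR quasi-likelihood F test, Benjamini-Hochberg).

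PDCD4, which binds and inhibits eIF4A, had 67.2, 6.02, 25 and 19.7 CPM in NCI-H1650, NCI-H520, Hs 936.T and A375 with RocA, against 66.6 to 388 CPM (median 110) with DMSO, a change of -2.53 ± 0.23 from 26 treated counts. PAIP2, an inhibitor of the poly(A)-binding protein, fell with -2.20 ± 0.20 from 39 treated counts. PAIP1, which links that protein to eIF4A, fell with -0.61 ± 0.18. The eIF4E kinase MKNK1 was called lower at -1.73 ± 0.51 from 6 treated counts, and its relative MKNK2 was not called at 0.31 ± 0.45. EIF4ENIF1, an eIF4E transporter, was called lower at -1.07 ± 0.41 from 11 treated counts, of which NCI-H1650 had 0.

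Signalling pathways and karyopherins held the largest shares of falls among the 32 lists. In the list from receptor tyrosine kinases to ERK, 23 of 30 tested members (76.7%) were called lower and 1 higher (3.33%). The shares over all tested genes were 33.0% and 26.9%. The median of the list was -1.10, against -0.15 for all tested genes. GRB2, the adaptor that couples receptors to RAS, had 33.6, 15.1, 4.99 and 14.8 CPM in NCI-H1650, NCI-H520, Hs 936.T and A375 with RocA, against 99.9 to 118 CPM (median 110) with DMSO, an 8.28-fold fall from 16 treated counts. DUSP4, a phosphatase that limits ERK, fell 3.00-fold, but 61 of its 78 treated counts came from Hs 936.T and 0 from NCI-H1650. The receptor gene ERBB3 was the 1 member called higher, at 0.73 ± 0.22, and the call ended without the treated A375 library (0.11). In the PI3K, AKT and mTOR list 14 of 24 were called lower (58.3%) and 4 higher (16.7%), with a median of -0.76. PIP5K1A, a kinase that makes PI(4,5)P2, fell 6.36-fold from 20 treated counts and RHEB, the GTPase that activates mTORC1, 3.65-fold. LAMTOR1, an anchor of mTORC1 on lysosomes, rose 3.26-fold and the mTORC2 subunit RICTOR 2.44-fold.

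Of the TGF-beta and BMP list, 13 of 19 were called lower (68.4%) and 2 higher (10.5%), with a median of -1.22. The shares over all tested genes were 33.0% and 26.9%. SMAD4, the shared signal transducer of the pathway, averaged 4 ± 3.4 CPM with RocA and 38.5 ± 5.85 CPM with DMSO, and SKIL, a corepressor of SMADs, 4.12 ± 3.85 and 33.3 ± 12.2 CPM. Both rest on 6 treated counts. The BMP target ID1 rose 1.92-fold. In the WNT and adhesion list 24 of 37 were called lower (64.9%) and 4 higher (10.8%), with a median of -0.91. Beside CTNNB1, the kinase gene CSNK1A1 fell 5.68-fold, while the hyaluronan receptor CD44 rose 2-fold and the alpha-catenin CTNNA1 1.45-fold. Of the apoptosis list 7 of 26 were called higher (26.9%) and 7 lower (26.9%), near the shares over all tested genes. CYCS (3.81-fold lower), AIFM1 (2.74-fold lower, with 0 treated counts in NCI-H1650), BIRC5 (2.36-fold higher) and BIRC6 (2.21-fold higher) were among those called.

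Among ubiquitin E2 enzymes 15 of 29 were called lower (51.7%) and 5 higher (17.2%), with a median of -0.57. The shares over all tested genes were 33.0% and 26.9%. UBE2D3, an E2 that serves many ligases, had 22.4, 9.04, 22.5 and 4.93 CPM in NCI-H1650, NCI-H520, Hs 936.T and A375 with RocA, against 160 to 268 CPM (median 228) with DMSO. Its 16-fold fall rests on 16 treated counts. UBE2D2, its close relative, fell 5.74-fold from 21 treated counts, while UBE2V1 rose 2.41-fold and UBE2W 2.76-fold. Deubiquitinases gave 16 of 37 lower (43.2%) and 6 higher (16.2%). There PSMD14 of the proteasome lid fell 4.93-fold and COPS5 of the COP9 signalosome 3.39-fold, while USP14 of the proteasome rose 2.13-fold and USP11 1.92-fold. Cullin ligases and F-box proteins gave 14 of 36 lower (38.9%) and 10 higher (27.8%), against 33.0% and 26.9% over all tested genes. The scaffold CUL3 fell 6.06-fold from 22 treated counts and CUL1 5.66-fold from 18, of which NCI-H1650 had 0. The adaptors SKP1 (1.96-fold) and ELOB (2.05-fold) were higher. SUMO and NEDD8 genes gave 13 of 28 lower (46.4%) and 6 higher (21.4%). DCUN1D5, a NEDD8 ligase, fell 4.43-fold from 21 treated counts, of which NCI-H1650 had 0. The SUMO ligase PIAS1 rose 2.51-fold and UBA6, an E1 enzyme, 2.11-fold.

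Genes of mRNA decay were called lower in 18 of 38 cases (47.4%) and higher in 12 (31.6%), against 33.0% and 26.9% over all tested genes. Their median was -0.62. CNOT1, the scaffold of the main deadenylase complex, averaged 50.1 ± 31.0 CPM with RocA and 273 ± 163 CPM with DMSO, and the helicase DDX6 averaged 50.3 ± 13.5 and 182 ± 33.7 CPM. ZFP36 and the exosome nuclease EXOSC10 (2.39-fold) were among the rises. In the list of nonsense-mediated decay and exon junction genes 7 of 19 were called lower and 7 higher (36.8% each). Over all tested genes the shares were 33.0% and 26.9%. The termination factors GSPT1 (4.37-fold) and ETF1 (3.16-fold) were among the falls, and the exon junction proteins CASC3 (2.91-fold) and MAGOHB (2.58-fold) among the rises.

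Karyopherins, which carry cargo through nuclear pores, were lower in 21 of 31 cases (67.7%) and higher in 6 (19.4%), with a median of -0.75. The shares over all tested genes were 33.0% and 26.9%. XPO1, the main export receptor, had 67.2, 118, 102 and 64.1 CPM in NCI-H1650, NCI-H520, Hs 936.T and A375 with RocA, against 344 to 534 CPM (median 460) with DMSO, and KPNB1, importin beta, fell 3.43-fold. RANBP3 rose 2.44-fold and the receptor XPO4 1.86-fold. Chromatin remodellers were lower in 26 of 54 cases (48.1%) and higher in 8 (14.8%). RBBP7, a histone chaperone subunit, averaged 23.8 ± 7.65 CPM with RocA and 324 ± 102 CPM with DMSO, a 14.4-fold fall from 30 treated counts. ANP32A fell 4.30-fold, and the ATPase RUVBL2 rose 1.90-fold and RSF1 2.43-fold. Cohesin and condensin genes gave 17 of 31 lower (54.8%) and 6 higher (19.4%). SMC2 fell 3.34-fold and the boundary factor CTCF 4.48-fold, the latter from 20 treated counts. NCAPD3 (2.1-fold) and SMC1A (2.12-fold) were higher. Mediator and RNA polymerase II genes gave 23 of 68 higher (33.8%) and 21 lower (30.9%), close to the shares over all tested genes. TAF7 fell 4.30-fold from 28 treated counts and GTF2A1 5.06-fold from 12, of which NCI-H1650 had 0. TAF1 rose 4.63-fold.

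Mitochondrial ribosomal proteins held the largest share of rises: 51 of 68 tested (75%) were called higher and 8 lower (11.8%), with a median of 1.06. The shares over all tested genes were 26.9% and 33.0%. MRPS18B had 157, 542, 607 and 451 CPM in NCI-H1650, NCI-H520, Hs 936.T and A375 with RocA, against 60.1 to 159 CPM (median 147) with DMSO. MRPS27 rose 3.33-fold, while MRPL24 fell 3.27-fold and MRPL13 1.98-fold. Ribosome biogenesis came next, with 32 of 54 higher (59.3%) and 13 lower (24.1%) and a median of 0.48. NHP2, of the H/ACA ribonucleoproteins, rose 2.77-fold and TSR1, a factor of small subunit maturation, 2.93-fold. EBNA1BP2 fell 2.65-fold and WDR12 4.14-fold, the latter from 34 treated counts. tRNA modification genes gave 12 of 31 higher and 9 lower. TRMT112, a partner of several methyltransferases, rose 3.26-fold and TRIT1 3.08-fold, and the ligase RTCB fell 1.76-fold. TRIT1 did not rise in NCI-H1650 (-0.39, from 1 treated count), and 82 of its 144 treated counts came from NCI-H520.

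TCA cycle genes were higher in 13 of 31 cases (41.9%) and lower in 7 (22.6%), against 26.9% and 33.0% over all tested genes. DLST, a subunit of the oxoglutarate dehydrogenase complex, averaged 480 ± 46.9 CPM with RocA and 117 ± 9 CPM with DMSO and rose 4.07-fold, while DLD, which shares a complex with it, fell 3.44-fold. Mitochondrial import and quality control gave 11 of 34 higher (32.4%) and 12 lower (35.3%), near those shares. The protease LONP1 (2.66-fold) and TOMM7 (2.85-fold) were higher and the protease YME1L1 (3.55-fold) and TIMM17A (2.48-fold) lower. Nucleotide synthesis gave 13 of 35 higher (37.1%) and 12 lower (34.3%). RRM2 and ATIC (2.82-fold) rose, and PRPS1 (2.97-fold) and ADK (3.24-fold, from 29 treated counts) fell. Redox genes gave 13 of 37 in each direction (35.1%). GPX4, which reduces lipid peroxides, averaged 318 ± 71.4 CPM with RocA and 86.2 ± 33.1 CPM with DMSO, and PGD of the pentose phosphate pathway rose 3.53-fold, while the cystine transporter SLC7A11 fell 3.86-fold and NQO1 1.83-fold. Iron and heme genes gave 11 of 34 in each direction (32.4%), near the shares over all tested genes. CIAO2B (2.30-fold) was higher and ALAS1 (2.44-fold) and the recycling factor ABCE1 (2.04-fold) lower.

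In the secretory pathway, ER translocon and glycosylation genes were higher in 24 of 50 cases (48.0%) and lower in 14 (28.0%), with a median of 0.34. The shares over all tested genes were 26.9% and 33.0%. Beside GANAB, the signal recognition receptor SRPRA rose 3.32-fold, while SEC61A1, the channel, fell 2.07-fold and DPAGT1, the first enzyme of N-glycan assembly, 10.4-fold from 8 treated counts. Coat genes gave 19 of 38 lower and 13 higher. TFG, which organises ER exit sites, fell 9.06-fold from 27 treated counts and ARF4 4.11-fold, and LMAN1 rose 1.94-fold and ARF5 2.16-fold. Clathrin, adaptor and retromer genes gave 19 of 45 lower (42.2%) and 10 higher (22.2%). The adaptor AP2M1 (5.75-fold) and the clathrin heavy chain CLTC (2.34-fold) were lower and AP1S2 (3.59-fold) and CHMP5 (1.98-fold) higher. SNARE and tethering genes gave 18 of 54 higher (33.3%) and 15 lower (27.8%), against 26.9% and 33.0% over all tested genes. USO1 fell 5.28-fold from 19 treated counts. STX7 was called lower at 3.84-fold, but 21 of its 22 treated counts came from Hs 936.T. VAMP3 (3.89-fold) and GOSR1 (2.71-fold) were higher. Lysosomal genes gave 16 of 43 lower (37.2%) and 12 higher (27.9%), near the shares over all tested genes. The protease CTSL fell 4.21-fold and ATP6V1H 3.14-fold, and the protease CTSC rose 3.19-fold and ATP6V1A 2.85-fold.

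Actin regulators were lower in 29 of 56 cases (51.8%) and higher in 13 (23.2%), against 33.0% and 26.9% over all tested genes. PFN1, profilin, averaged 348 ± 189 CPM with RocA and 1189 ± 522 CPM with DMSO. NCKAP1 of the WAVE complex fell 5.57-fold from 38 treated counts. VCL, the adhesion protein vinculin, had 404, 458, 514 and 301 CPM in NCI-H1650, NCI-H520, Hs 936.T and A375 with RocA, against 78.2 to 142 CPM (median 113) with DMSO, and its 4 changes lay between 1.85 and 1.93. ARPC4 rose 2.35-fold. Tubulins and microtubule regulators gave 15 of 41 in each direction (36.6%), against 33.0% lower and 26.9% higher over all tested genes. PAFAH1B1 fell 5.6-fold from 29 treated counts and MAPRE1 2.28-fold. TUBB4B (2.07-fold) and MAP1S (2.36-fold) were higher. TUBB4B may share reads with other tubulins. Phosphatase and 14-3-3 genes gave 23 of 41 lower (56.1%) and 5 higher (12.2%), with a median of -0.52. There YWHAB fell 2.66-fold beside PPP2CA, and the phosphatase PPP6C rose 2.41-fold, as did PPP1R15A (3.02-fold), the stress-induced subunit that dephosphorylates eIF2.

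**Figure D4:**
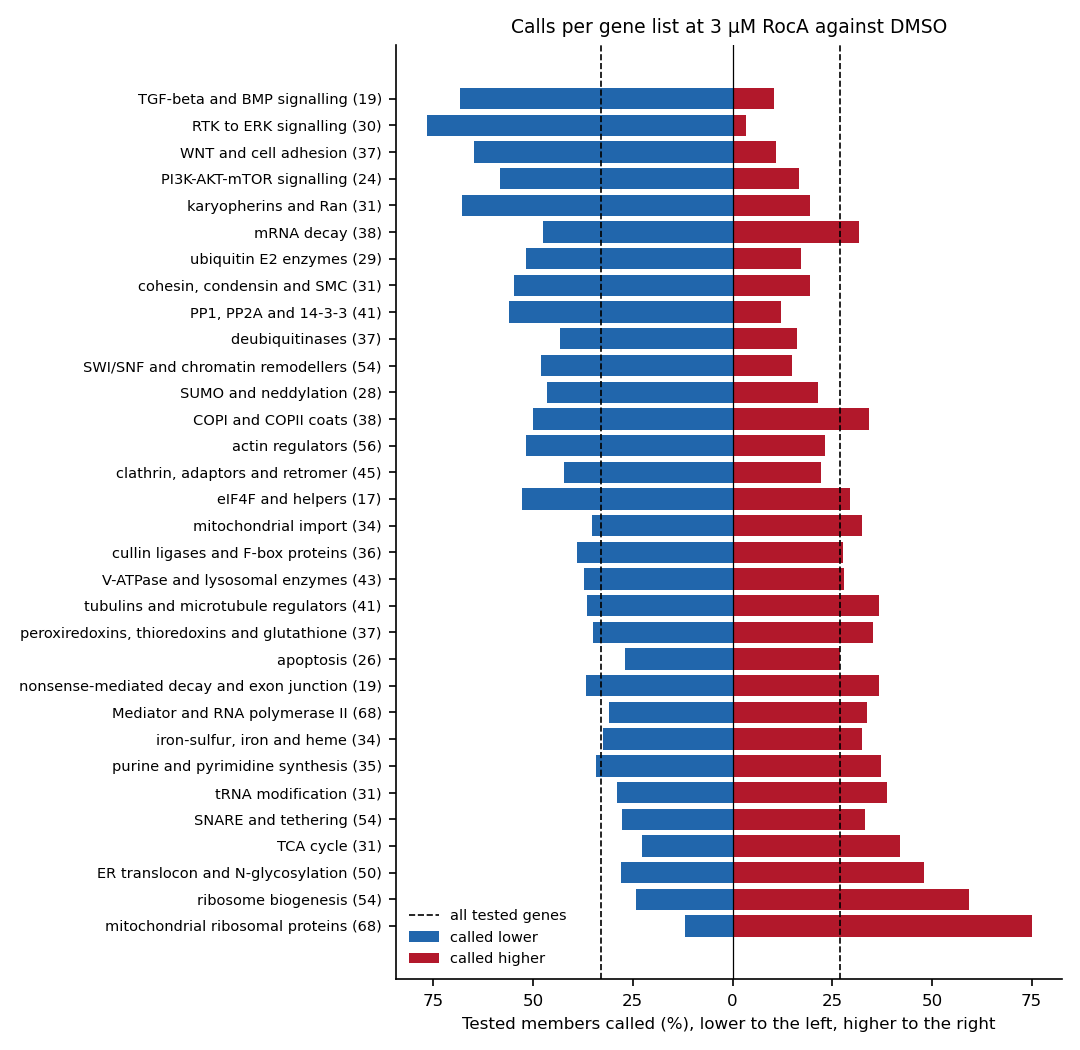
For each of 32 gene lists, with the number of tested members in brackets, the blue bar to the left gives the share called lower and the red bar to the right the share called higher at 3 µM RocA against DMSO. Dashed lines mark the shares over all tested genes, 33.0% lower and 26.9% higher. The list from receptor tyrosine kinases to ERK reaches 76.7% lower and mitochondrial ribosomal proteins 75% higher.

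The median change was lower in genes with longer purine runs in the 5′ UTR. A 5′ UTR of at least 20 bases was annotated for 8223 of the tested genes (94.6%), and the comparison is a description across genes, with no test. The median log2 change was 0.38 for the 1800 genes whose longest purine run had 5 bases or fewer, -0.12 for runs of 6 to 7 bases, -0.37 for 8 to 9, -0.45 for 10 to 11, -0.60 for 12 to 14 and -0.75 for the 632 genes with 15 bases or more. In these end classes 45.5% and 12.2% of the genes were called higher. The order from the shortest to the longest runs was the same in each line, apart from equal medians at the upper end in Hs 936.T. Genes with GAGAGA or AGAGAG in the 5′ UTR (12.9% of those with a 5′ UTR, searched on the mRNA strand) had a median of -0.74, against -0.12 for the others.

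Runs are longer in longer 5′ UTRs, and length moved with the change as well. The median was 0.67 for 5′ UTRs of 20 to 50 bases, 0.31 for 51 to 100, -0.15 for over 100 and up to 200, -0.56 for over 200 and up to 400 and -0.73 above 400. Within 5′ UTRs of 20 to 50 bases, the median was 0.72 with runs of at most 7 bases, 0.31 with 8 to 10 and 0.42 with 11 or more, the last class holding 23 genes and lying above the middle one. For the same classes of runs it was 0.39, 0.14 and 0.01 within 51 to 100 bases, and -0.01, -0.25 and -0.42 above 100 and up to 200 bases. Above 200 and up to 400 bases it was -0.38, -0.65 and -0.66, and above 400 bases -0.68, -0.68 and -0.77. The 12 leading falls had a median 5′ UTR of 291 bases and a longest run of 9.5 bases in the median, and the 12 leading rises 118 and 5 bases, against 183 and 8 bases over all genes with a 5′ UTR. Exceptions were found on either side. GSPT1 fell with a longest run of 5 bases and TFG with one of 4, whereas LDHA rose with 11, PPIB with 12 and AHNAK with 23.

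**Figure D5:**
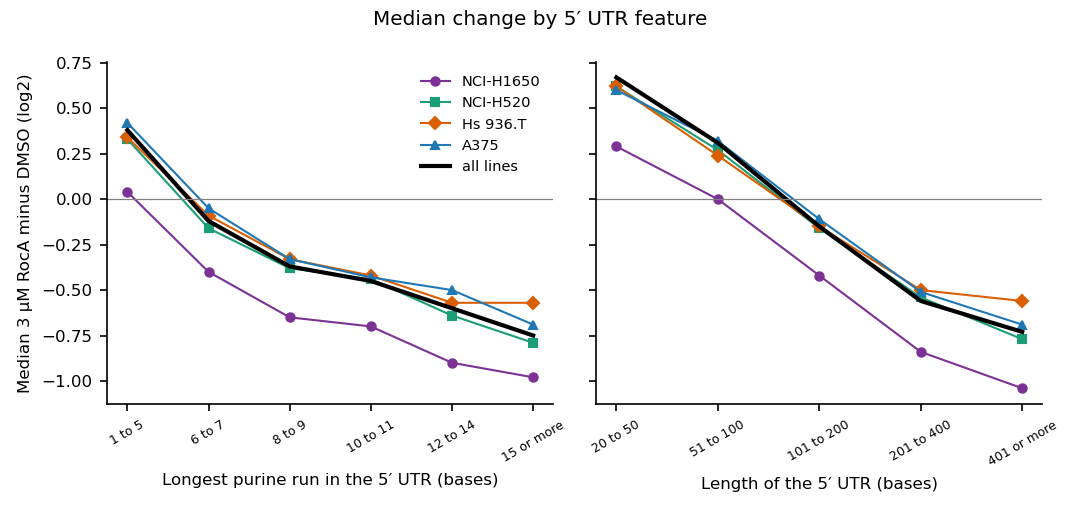
The median log2 change at 3 µM RocA against DMSO is plotted by the longest purine run (left) and by the length (right) of the annotated 5′ UTR, for each line and for the fit over all lines. Medians fall from left to right in both panels, from 0.38 to -0.75 over runs and from 0.67 to -0.73 over lengths, and NCI-H1650, the line with the fewest treated counts, lies lowest throughout.

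The changes of a pair of lines correlated with r from 0.56 (NCI-H1650 with NCI-H520) to 0.78 (Hs 936.T with A375) across 6303 genes. These had at least 400 counts over the DMSO libraries, with no minimum on treated counts, and are not independent replicates. A difference between lines was called for 147 genes (1.69%) by the edgeR quasi-likelihood test of 3 line terms, whose error comes from the DMSO pairs. Without the treated NCI-H520 library the count was 48. NCI-H520 had the highest change for 81 of the 147 genes and NCI-H1650 the lowest for 99, and the same shares over all tested genes were not counted. Over the 6303 genes NCI-H1650 had the lowest median change (-0.44, against -0.16 to -0.11 in the other lines). Its spread was also the widest (SD 1.73, against 1.1 to 1.26). The counts of 81 and 99 are therefore not read as a trait of the 147 genes. Cytosolic ribosomal proteins, a group formed after these values were seen, made up 45 of the 147 genes (30.6%) and were 70 of the tested genes. Their median change was -0.14 in NCI-H1650 and 0.64 in NCI-H520, with 0.37 in Hs 936.T and 0.22 in A375, and 41 of the 70 were called higher and 12 lower over all lines. Many of these genes may share reads with processed pseudogenes. The treated libraries of these lines also differ most in depth relative to DMSO (41.4% in NCI-H520 and 8.6% in NCI-H1650), and the part of depth in these differences was not tested.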

How the data were processed

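The deposited files hold read counts per transcript entry and no gene names; the authors' counting tool and annotation release are not given in the sources used here. The submitters' processing notes list CASAVA 1.8, Bowtie2 2.1.0, TopHat2 2.0.9 and build hg38. Names came from ordered alignment of coding lengths with GENCODE release 29 at odds of at least 100, which named 17901 genes, of which 17634 were used. Of 1986 decoy genes, 64 (3.22%) passed the same step. Low counts were removed with filterByExpr at a minimum count of 10, leaving 8688 genes. The main test was edgeR 4.0.16 (R 4.3.3) quasi-likelihood with TMM scaling, cell line and RocA as terms, on 12 libraries, with Benjamini-Hochberg adjustment. Per-line changes are log2 CPM with a prior count of 2. The test between lines assumes that treated libraries vary like DMSO pairs. Alternatives used DESeq2 1.42.0 and limma 3.58.1, and tables were made with Python 3.11.15, NumPy 2.4.6, pandas 2.3.3 and matplotlib 3.10.9. The fit was tested on simulated data.

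Named genes were the 12 largest falls and rises with at least 400 DMSO and 40 treated counts, the 8 largest in each direction above 500 CPM, up to 2 called members per list and direction, and all eIF4F members; some genes that the rule names are not reported here. The members and lists were chosen with earlier results of these data known. DMSO pairs differed beyond sampling noise (chi-square per degree of freedom 1.54 to 2.67). With no label naming separate cultures, p-values measure only the spread between these libraries. Intervals from counts would cover counting error only.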

Additional observations from a re-analysis of the deposited data

Results flagged for a closer look

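The change differed between lines for 7 of the named genes by the edgeR quasi-likelihood test of the line terms. The rules named 169 genes, some of which are not reported here, and over all tested genes a difference was called for 147 of 8688 (1.69%). The F value was 8.15 for PABPC1, 8.22 for ZFP36, 9.11 for C19orf53, 11.93 for RACK1, 10.89 for EIF4G1, 12.4 for TRMT112 and 9.1 for TUBB4B. TRMT112 rose most in NCI-H520 (2.34) and least in NCI-H1650 (1.06), and TUBB4B ranged from 0.65 in NCI-H1650 to 1.29 in A375.

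In other genes 1 line stood far from the other lines by Dixon's criterion, which chance meets in about 1 of 20 groups. With 169 genes named by the rules, several could meet it by chance. NCI-H1650 stood apart for NDUFAF8 (0.34), PIP5K1A (-1.31), RANBP3 (0.12) and RHEB (-3.02), with 1 to 4 treated counts each. It also stood apart for EIF4ENIF1 (-4.45), SKIL (-5.44) and AIFM1 (-6.06), all at 0 treated counts, so that these values depend on the prior count. NCI-H520 stood apart for EIF4G2 (-1.53), PAIP2 (-1.51), TSR1 (1.99) and MAPRE1 (-0.87). Hs 936.T stood apart for SLC2A1 (-0.61) and NCAPD3 (0.76), and A375 for VCL (1.85), whose lines lay within 0.1 of each other.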

How the results depend on the processing

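Over the alternatives the count of genes called higher lay between 1928 and 2473 and the count called lower between 2139 and 3506, within 1.5 times of the reported counts. With the DMSO number as a replicate block the counts were 2313 and 2843; deviations of same-numbered libraries correlated between -0.039 and 0.109, so the numbers were not taken to pair libraries. The 39 genes named as leading well-counted or high-level falls and rises kept direction and call in 1120 of 1120 gene and setting pairs. They had been chosen as called with one sign in each line, and the settings refit the same libraries. This stability therefore follows largely from the choice and is no separate support. Leaving out 1 library put the count of genes that differ between lines between 48 (without the treated NCI-H520 library) and 186; the cause was not tested. Changes near 0 turned sign. EIF4G3 stood at -0.00 with RLE factors or without DMSO library 1 of Hs 936.T, at -0.01 with upper-quartile factors, with thinned counts or without DMSO library 1 of NCI-H520 or A375, at -0.02 with all 16 libraries or without DMSO library 2 of NCI-H1650, at -0.05 with DMSO libraries 2 alone or without the treated library or the whole of NCI-H1650, and at -0.11 with no filter, and reached 0.08 without DMSO library 2 of A375. EIF4H stood at 0.03 without the treated NCI-H1650 library or without either whole line NCI-H1650 or A375, at 0.01 without the treated library of either melanoma line, and at -0.16 without that of NCI-H520. MKNK2 stood at -0.01 without the treated NCI-H520 library or both NCI-H521-labelled libraries, at -0.1 without the treated Hs 936.T library and at -0.11 without that line, and reached 0.64 without the treated NCI-H1650 library. Depth limits NCI-H1650 most, where 1 treated count is worth 13 CPM.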
